A study of Homo sapiens with 3 samples.

Results

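The AP-1 and immediate early genes described here are 10 genes chosen by symbol: FOS, FOSB, FOSL1, FOSL2, JUN, JUNB, JUND, EGR1, IER2 and IER3. All 10 symbols were among the 16793 measured, and 9 passed the filter on low values that 11512 genes passed in all. They were measured by RNA-seq in H446, an established line of human small cell lung cancer cells grown in serum-containing medium. The cells received vehicle, 5 µM or 10 µM of 3-bromoascochlorin (BAS), a brominated form of the fungal metabolite ascochlorin, for 48 h. The study's title names inhibition of the MAPK pathway, of which these genes are classical transcriptional outputs, and each dose was set against vehicle and against the other dose. Each group is a single library, which leaves every difference without a measure of replicate error and allows no test. For the same reason it cannot be said which neighbours in an order of levels differ beyond their spread.

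AP-1 is a dimeric transcription factor made of leucine zipper proteins. JUN proteins pair with one another or with FOS proteins, which do not form stable pairs among themselves, and the dimers bind the sequence TGACTCA. Immediate early genes are switched on by growth factor or stress signals without new protein synthesis, through factors such as SRF and the ETS protein ELK1, which ERK, JNK and p38 kinases activate. In lung cancer cells AP-1 is known for its place at the end of RAS and stress kinase signalling, and its RNAs are short-lived, so that levels follow recent transcription.

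The promoters are shown first because these genes are best known for the elements through which kinases reach them. RefSeq sequences (build GRCh38.p14) from 250 bases before to 50 bases after the transcript start were matched for 8 of the 10 genes, with FOSL1 and IER3 missing. Both strands were searched for the cyclic AMP response element (CRE, TGACGTCA), the AP-1 element (TRE, TGACTCA), the EGR sites GCGGGGGCG and GCGTGGGCG, the CArG box bound by SRF, and TATAAA. The CRE core TGACGT, which lies inside every CRE, and the variant TRE of the JUN promoter, TGACATCA, were added after the sequences were seen. The windows below end just before the start, run 5′ to 3′ in the direction of transcription, and carry matches in capitals. EGR1 (chr5:138465329-138465478, plus strand) and FOS (chr14:75278678-75278827, plus strand) are shown because they had the largest differences. JUN (chr1:58784048-58784197, minus strand) and JUND (chr19:18281623-18281872, minus strand) are shown as the abundant partners, and IER2 (chr19:13150261-13150410, plus strand) as the gene with the smallest difference among those above vehicle at 10 µM.
EGR1: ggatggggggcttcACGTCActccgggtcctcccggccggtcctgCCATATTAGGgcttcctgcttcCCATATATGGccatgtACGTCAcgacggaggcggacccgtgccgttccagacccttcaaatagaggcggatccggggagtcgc
FOS: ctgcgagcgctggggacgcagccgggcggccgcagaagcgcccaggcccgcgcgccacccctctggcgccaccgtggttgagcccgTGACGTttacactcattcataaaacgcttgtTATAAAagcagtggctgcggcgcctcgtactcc
JUN: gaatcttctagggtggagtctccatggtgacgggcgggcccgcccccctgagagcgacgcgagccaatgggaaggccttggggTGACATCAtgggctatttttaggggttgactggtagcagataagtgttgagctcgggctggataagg
JUND: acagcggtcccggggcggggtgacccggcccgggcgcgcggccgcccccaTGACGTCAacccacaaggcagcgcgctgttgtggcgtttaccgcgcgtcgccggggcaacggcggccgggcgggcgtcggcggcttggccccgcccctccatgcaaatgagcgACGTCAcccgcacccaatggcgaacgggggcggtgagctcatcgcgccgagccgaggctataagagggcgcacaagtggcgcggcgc
IER2: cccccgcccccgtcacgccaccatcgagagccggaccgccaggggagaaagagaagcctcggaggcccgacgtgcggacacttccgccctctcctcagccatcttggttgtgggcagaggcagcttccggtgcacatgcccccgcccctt

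EGR1 held 2 CArG boxes, from -105 to -96 and from -83 to -74 relative to the start, where 351 of 27305 promoters (1.29%) held any. They lay between 2 CRE cores on the minus strand. FOS had a CRE core from -64 to -59 and a TATAAA from -33 to -28, and FOSB had the same arrangement, from -60 to -55 and from -30 to -25. JUNB also had a TATAAA, from -31 to -26. TATAAA was present in 3 of the 8 promoters and in 12% of all promoters. The JUN window held the variant TRE from -67 to -60, found in 2.71% of promoters, and no other match. JUND had a full CRE from -200 to -193, present in 1.98% of promoters, and a further CRE core from -87 to -82. The core alone was found in 5 of 8 promoters of the group and in 8.32% of all. FOSL2 had a CRE core from -66 to -61 and a TRE that began 4 bases past the start, an element found in 4.92% of promoters. No EGR site was found in the 8 windows, against 5.7% of all promoters, and the IER2 window held none of the letters searched. The SRF element for which FOS is known lies further upstream than this window. Among the 9180 promoters of genes past the filter the shares differed: 5.08% held TATAAA, 12.1% the CRE core, 3.51% a full CRE, 2.66% a TRE, 9.63% an EGR site, 1.06% a CArG box and 1.42% the variant TRE. A match describes letters only, and no binding was measured.

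**Figure D1:**
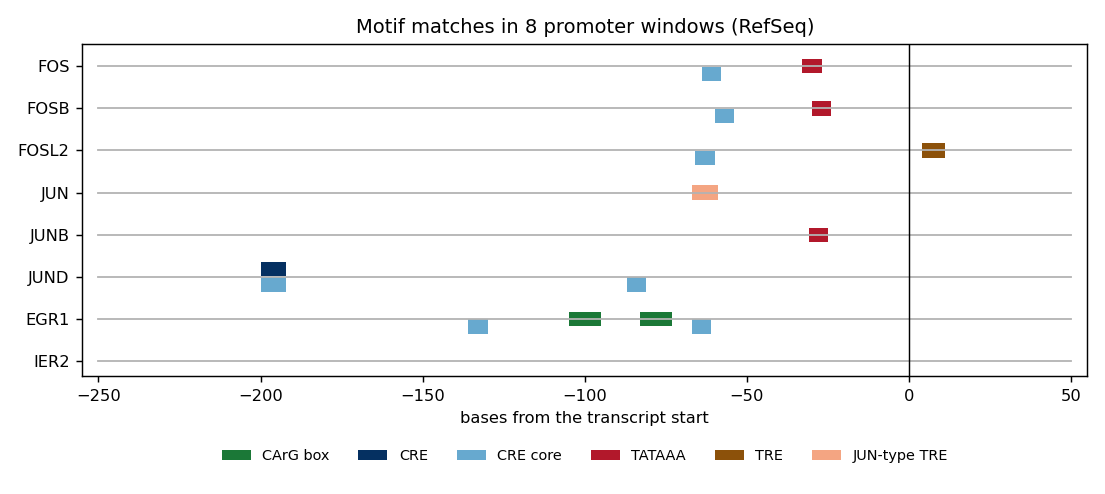
Matches to the searched motifs in the promoter windows of 8 genes, drawn by distance in bases from the transcript start (vertical line), with the core TGACGT (CRE core) drawn apart from the full CRE. The 2 CArG boxes of EGR1 and the TATA matches of FOS, FOSB and JUNB near -30 stand out, and IER2 has no match.

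Levels are in FPKM, the deposited unit, which is scaled for transcript length and library size, so genes can be compared per length. The 3 libraries summed to between 487923 and 507342 FPKM. Read depth is unknown, because no counts are given, so no counting error can be set beside a low value. In the files, the value columns of the treated cells are named ASB85 and ASB810 and not BAS, so every dose given here depends on the labels being right. The line's identity was visible in its markers: NEUROD1, INSM1, UCHL1 and POU4F1 were at 65.66 FPKM or above in every library, while POU2F3 and YAP1, which mark other small cell subtypes, were at 0.07 or below. Of the 13 markers measured in that list, 11 passed the filter. At 10 µM 2 of these, UCHL1 and CHGA, were called higher, against 1.31% of all genes. At that dose 7 of the 11 were above vehicle, where 56.5% of all genes were. The 4 below were SYT1 (6.35, 3.70 and 3.46 FPKM), POU4F1 (101.29, 69.87 and 65.66 FPKM), SYP and NEUROD1. The list summed to 513.31, 545.04 and 609.00 FPKM. Of the fibroblast markers, DCN and LUM were at 0.31 FPKM or below, but the collagen genes COL1A1, COL1A2 and COL3A1 were at 63.57 FPKM or above, and the list of 6 summed to 751.34, 933.71 and 924.28 FPKM with vehicle, 5 µM and 10 µM. The 4 leukocyte markers measured summed to 4.61, 7.31 and 9.66 FPKM, most of it CD68, which was called higher at 10 µM (2.85, 6.05 and 7.34 FPKM), with PTPRC at 0.92 to 1.09 FPKM. The 3 endothelial markers summed to 58.12, 56.28 and 52.46 FPKM: PECAM1 and VWF were at 0.46 FPKM or below, whereas CDH5 was at 51.99 to 57.56 FPKM. The part of these markers in the results was not tested. As in any bulk sample, a change in the share of cells and a change in RNA per cell cannot be told apart.

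At 10 µM, FOS, FOSB and EGR1 were more than 2 times vehicle and the JUN genes, IER3 and FOSL1 were 1.62 to 2.0 times vehicle, while FOSL2 and IER2 stayed near it. The group was chosen with earlier results of these data known, so its direction, here and below, is no independent evidence. Of the 9 genes past the filter, 8 were above vehicle at each dose, where 53.2% of all genes were at 5 µM and 56.5% at 10 µM. Their median difference in log2(FPKM + 1) was 0.50 at 5 µM and 0.80 at 10 µM, beside 0.02 and 0.05 over all genes. A gene is called higher or lower where that difference reached 1, on a scale that understates the change of low genes. Folds given below are FPKM ratios without a pseudocount. By this rule 0 of the 9 were called higher at 5 µM, against 0.539% of all genes, and 2 of the 9 at 10 µM, FOS and EGR1, against 1.31%. FOS passed the filter only through its 10 µM level, so its call was in part set by the filter, and EGR1 is the only other call. None was called lower at either dose, against 0.217% and 0.643% of all genes. Both doses share the vehicle library, so a vehicle value that happened to be low would raise both differences of a gene.

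**Figure D2:**
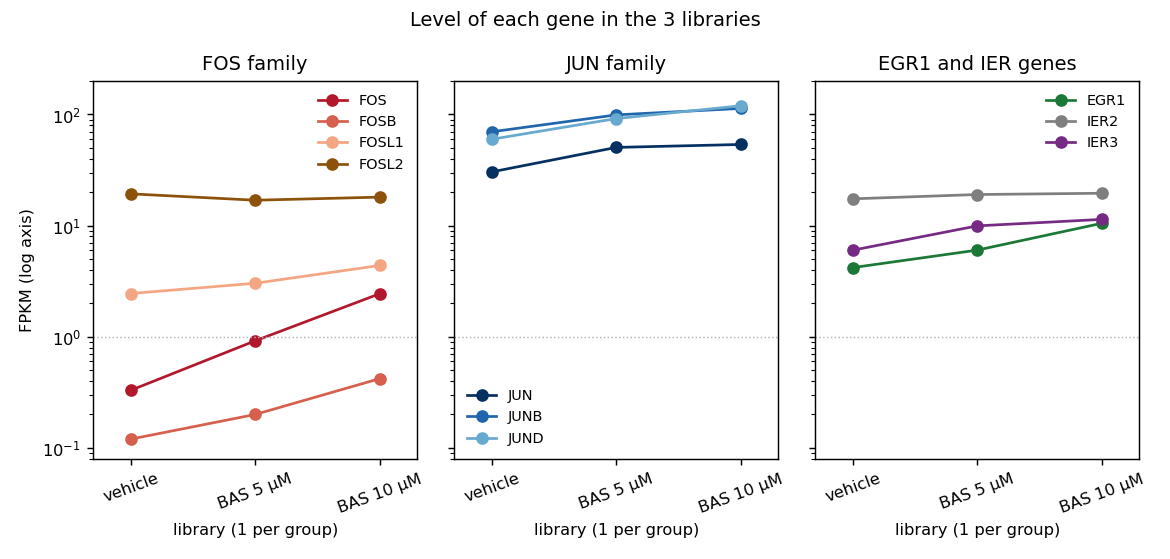
Level of each gene (FPKM, log axis) in the vehicle, 5 µM and 10 µM libraries, 1 point per library, in 3 panels by family, with a dotted line at 1 FPKM. FOS, FOSB and EGR1 climb at both steps, JUN and IER3 mostly at the first, and FOSL2 and IER2 stay near their vehicle level.

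The JUN genes were the most abundant of the group. JUNB, a partner that often restrains JUN activity, was at 69.87, 99.18 and 113.38 FPKM in the vehicle, 5 µM and 10 µM libraries, the order used for all values below. JUND, the family member expressed steadily in most resting cells, was at 59.88, 91.89 and 119.77 FPKM. JUN, the founding member and the main substrate of JNK, was at 30.44, 50.56 and 53.74 FPKM. All 3 had their lowest level with vehicle, and JUND passed JUNB at 10 µM to become the most abundant of the group, moving from rank 1286 to rank 579 among all genes. It was 2.0-fold over vehicle at 10 µM, and its difference of 0.99 lay just under the limit for a call, whereas EGR1, just over it, stood at 1.15. JUN and JUNB were 1.77-fold and 1.62-fold over vehicle at 10 µM, with differences of 0.80 and 0.69. Among all genes these differences stood at percentile 98.6 for JUND, 97.5 for JUN and 96.1 for JUNB. The JUND transcript is the richest in G and C of the group (69.67% against a median of 48.86% over all genes), and with trends in GC content and length removed its difference was 0.76. The JUNB difference at 5 µM, 0.50, was 0.32 with these trends removed.

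The FOS family was low except for FOSL2. FOSL2 (FRA-2), a FOS protein without the strong activation domain of FOS, was at 19.32, 16.93 and 18.05 FPKM. It was the only one of the 10 genes below vehicle, at 0.88 and 0.93 times its level. FOSL1 (FRA-1), known as a late and ERK-dependent member, was at 2.45, 3.03 and 4.38 FPKM, or 1.24-fold and 1.79-fold over vehicle. With GC and length trends removed, its difference was 0.05 in place of 0.22 at 5 µM and 0.50 in place of 0.64 at 10 µM. FOS itself, the prototype immediate early gene, was at 0.33, 0.92 and 2.44 FPKM. That is 2.79-fold over vehicle at 5 µM and 7.39-fold at 10 µM. The difference of 1.37 at 10 µM was at percentile 99.5 among all genes past the filter. FOS passed that filter only through its 10 µM level, so this percentile was partly set by the filter. At levels as low as those of FOS the values themselves are coarse: they carry 2 decimals, and rounding alone allows 7.27-fold to 7.52-fold. With a pseudocount of 0.1 in place of 1, the FOS differences were 1.25 at 5 µM, which is then a call, and 2.56 at 10 µM. FOSB, the close relative of FOS, was under the filter with a mean of 0.25 FPKM, at 0.12, 0.20 and 0.42 FPKM. Its ratio of 3.50 at 10 µM lies between 3.32 and 3.70 by rounding alone, and it received no call.

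**Figure D3:**
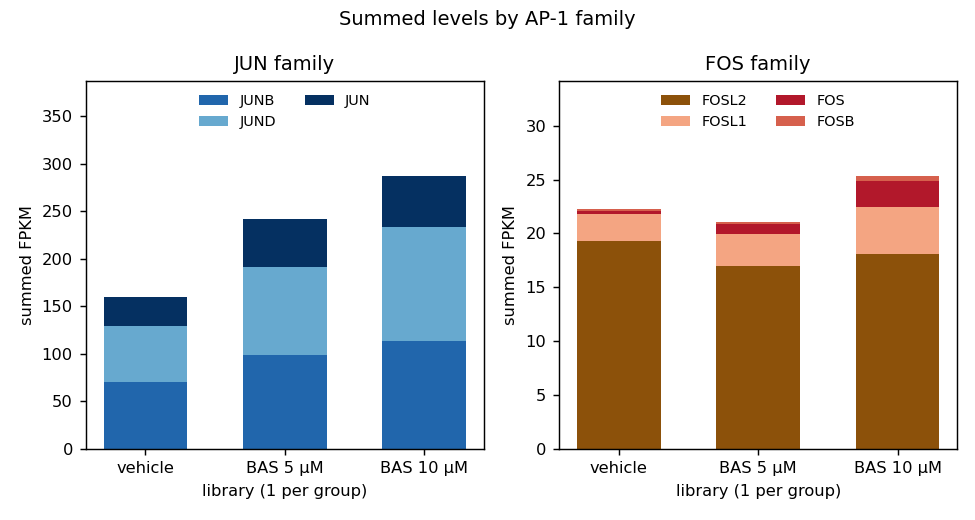
Summed FPKM of the JUN family (left) and the FOS family (right) in the 3 libraries, 1 per group, stacked by gene, on axes that differ in scale. The JUN sum goes from 160.19 to 286.89 FPKM, and in the FOS sum the FOSL2 share shrinks while those of FOSL1 and FOS widen.

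Summed over genes, JUN family RNA was at 160.19, 241.63 and 286.89 FPKM, which is 1.51-fold and 1.79-fold over vehicle. The FOS family summed to 22.22, 21.08 and 25.29 FPKM, or 0.95 and 1.14 times vehicle. JUN family RNA thus exceeded FOS family RNA 7.21-fold with vehicle, 11.46-fold at 5 µM and 11.34-fold at 10 µM. Within the JUN family the makeup was similar in the 3 libraries: JUN held 18.7% to 20.9% of the sum, JUNB 39.5% to 43.6% and JUND 37.4% to 41.7%. Within the FOS family FOSL2 held 86.9% of the sum with vehicle, 80.3% at 5 µM and 71.4% at 10 µM. FOS went from 1.49% of it to 4.36% and 9.65%, and FOSL1 from 11% to 14.4% and 17.3%. Without FOSL2, the other FOS genes together were 1.43-fold and 2.50-fold over vehicle.

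EGR1, a zinc finger factor that is induced through SRF and ETS sites and whose promoter with 2 CArG boxes is shown above, was at 4.19, 6.02 and 10.49 FPKM. It was 1.44-fold and 2.50-fold over vehicle, and its difference of 1.15 at 10 µM was at percentile 99.2 among all genes. IER3, an early response gene that affects cell survival, was at 6.01, 9.95 and 11.38 FPKM, 1.66-fold and 1.89-fold over vehicle. IER2, a small nuclear early response protein, was at 17.42, 19.05 and 19.56 FPKM. Its differences of 0.12 and 0.16 lay at percentiles 66.4 and 64.8, within the bulk of all genes. With GC and length trends removed they were 0.01 and 0.05.

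**Figure D4:**
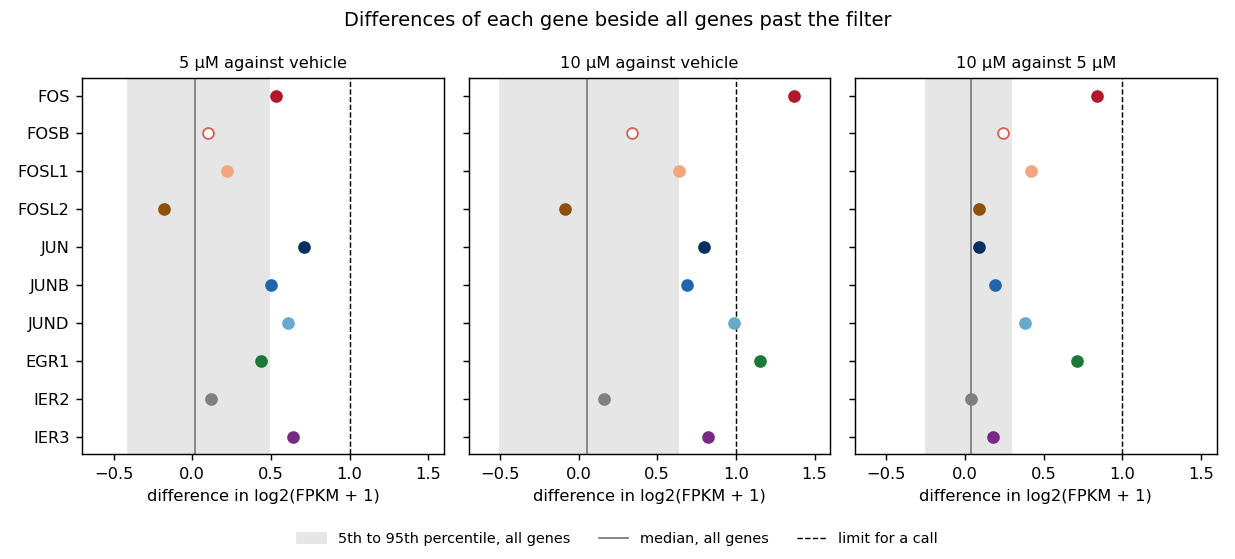
Difference in log2(FPKM + 1) of each gene in the 3 comparisons, with the 5th to 95th percentile of all 11512 genes in grey, their median as a line and the limit for a call as dashes; FOSB, under the filter, is drawn open. FOS and EGR1 pass the limit at 10 µM, and in the right panel FOS, EGR1, FOSL1 and JUND lie above the grey band while JUN and IER2 lie near its centre.

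The genes differed in where along the doses they moved. Between 5 µM and 10 µM, FOS was 2.65-fold, FOSB 2.10-fold, EGR1 1.74-fold, FOSL1 1.45-fold and JUND 1.30-fold higher. On the log2(FPKM + 1) scale the step was 0.84 for FOS, 0.71 for EGR1, 0.42 for FOSL1 and 0.38 for JUND, at percentiles 99.9, 99.7, 98.3 and 97.6 among all genes. JUN was 1.06-fold, IER3 and JUNB both 1.14-fold and IER2 1.03-fold higher over the same step. The JUN step of 0.09 was at percentile 64.0, although its step of 0.71 from vehicle to 5 µM was at percentile 98.3. JUN, JUNB and IER3, and to a smaller extent JUND, had covered most of their difference from vehicle at 5 µM, and FOS, EGR1 and FOSL1 had not. All 9 genes past the filter were above their 5 µM level at 10 µM, where 58.6% of all genes were, with a median step of 0.19 against 0.04. FOS passed the filter only through its 10 µM level, so its step and its place in this count were partly set by the filter. The step of IER2, the smallest at 0.04, was the only one of the 9 to change sign under another scaling (-0.00 with quantile normalization). None was called higher or lower between the doses, as 0.0434% of all genes were in each direction. With a pseudocount of 0.5 or 0.1, FOS was called there, at 1.05 and 1.32. Levels followed the order vehicle, 5 µM, 10 µM in 8 of the 9 genes, against 32.9% of all genes, and FOSL2 was the exception. The limit set by the filter applies to FOS in this count too. Whether the dose pattern of one gene differs from that of another was not tested.

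The choice by symbol used neither gene structure nor position. FOSB, JUNB, JUND and IER2 lie on chromosome 19, and the others on chromosomes 14 (FOS), 11 (FOSL1), 2 (FOSL2), 1 (JUN), 5 (EGR1) and 6 (IER3). In GENCODE 29, JUN, JUNB, JUND and IER2 are transcribed from 1 exon, and EGR1 and IER3 from 2, so that 6 of the 10 have at most 2 exons, against 6.8% of genes past the filter. The FOS genes each have 4 exons, against a median of 9 over all genes. Transcripts ran from 1244 bases for IER3 to 6708 for FOSL2, beside a median of 3172. The pentamer ATTTA, the core of the AU-rich elements known to shorten the life of early response RNAs, was in the 3′ UTR of 9 of the 10, with IER2 the exception. It was also in 69.9% of all genes, and per kilobase of 3′ UTR it was no denser in the group (2.22) than over all genes (2.29). FOS had 5 copies, IER3 6 and FOSL2 9. None of FOS, FOSB, FOSL2, JUN, JUND and EGR1 shared 50-base sequences with another gene. IER2 shared 29.5%, IER3 26.11%, JUNB 11.86% and FOSL1 3.64% of theirs. By gene span, introns included, IER2, IER3, JUNB, FOSB and FOSL2 overlap a gene on the opposite strand. FOSL2 also overlaps AC104695.3 on its own strand. The FOSB and FOSL2 transcripts compared, 1 per gene, shared no 50-base sequence with these neighbours on either strand. Whether counting used strand is not stated in the sources used, so reads from the shared sequence of IER2, IER3 and JUNB may not be separable. HOOK2, which overlaps JUNB, was at 6.47, 7.23 and 8.43 FPKM, far below JUNB, but ERCC1, which overlaps FOSB, was at 50.76, 63.36 and 65.27 FPKM, far above FOSB.

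Among 47 other immediate early genes measured, 39 passed the filter, and 3 were called higher at 5 µM and 6 at 10 µM, with 0 called lower. At 10 µM 37 of the 39 were above vehicle, and the median difference was 0.23 at 5 µM and 0.43 at 10 µM. Over all genes, 0.539% were called higher at 5 µM and 1.31% at 10 µM, where 56.5% were above vehicle. These shares also stand beside the counts of the lists that follow. CTGF and PLK2, at 0.94 and 0.60 FPKM with vehicle, passed the filter only through the treated libraries. KLF2, a zinc finger factor, was at 10.35, 33.36 and 39.82 FPKM. CYR61, a secreted matrix protein, was at 66.56, 168.90 and 162.78 FPKM. RHOB, an inducible small GTPase, was at 117.32, 247.23 and 280.08 FPKM, and the EGF receptor ligand HBEGF at 5.91, 12.40 and 15.12 FPKM. These 4 had the largest differences of the list, and each had covered most of its difference at 5 µM. Next to EGR1, its relatives EGR2 and EGR3 were at 0.17 FPKM or below throughout. The list overlaps lists whose values were known when it was drawn up, so its direction is no independent evidence.

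**Figure D5:**
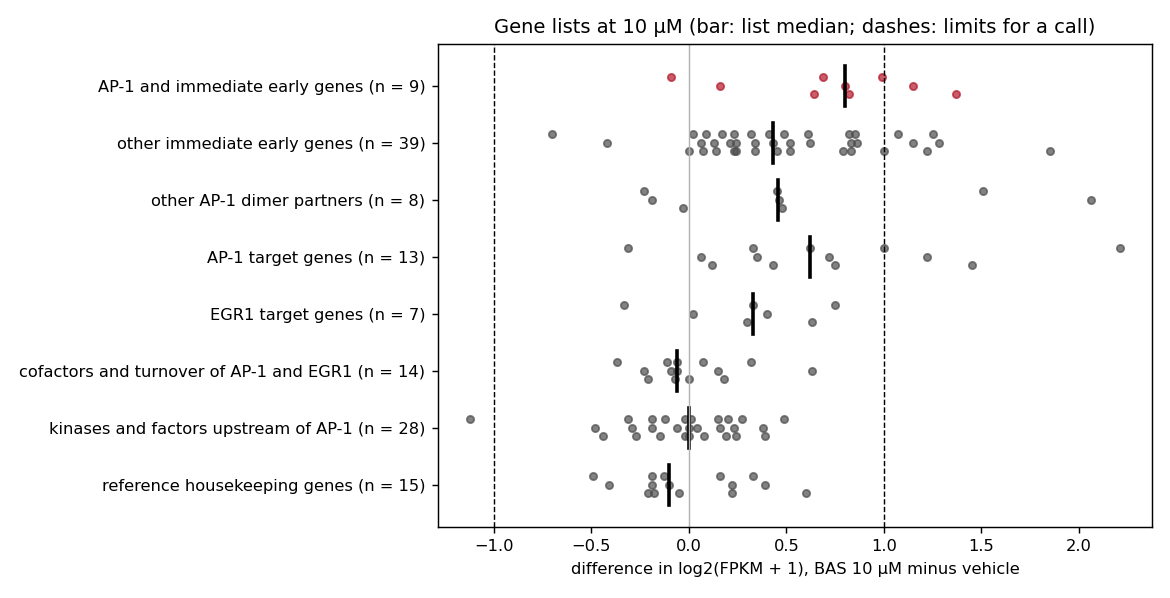
Difference in log2(FPKM + 1) at 10 µM against vehicle for each gene past the filter, by gene list, with a bar at each list median and dashes at the limits for a call. The AP-1 and immediate early genes have a median of 0.80, the kinases and factors upstream of AP-1 of 0.00 and the housekeeping genes of -0.10.

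Other leucine zipper partners of FOS and JUN split. Of 14, 8 passed the filter, and 2 were called higher at each dose, with 0 called lower and medians of 0.22 and 0.46. JDP2, which pairs with JUN and represses AP-1 sites, was at 1.96, 9.35 and 11.31 FPKM, 5.77-fold over vehicle at 10 µM. ATF3, a stress-induced partner, was at 7.92, 20.25 and 24.41 FPKM. The small MAF protein gene MAFK and BATF3 were 1.49-fold and 1.47-fold over vehicle at 10 µM, without a call. ATF2 and ATF7 were below vehicle at both doses, ATF2 at 13.49, 11.69 and 11.34 FPKM.

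The kinases and factors upstream of AP-1 had RNA levels on both sides of vehicle. Of 31 genes, 28 passed the filter: 12 of these were above vehicle with 5 µM and 14 with 10 µM, with median differences of -0.03 and 0.00. One was called lower at 10 µM and 0 higher: MAP2K6, a kinase of p38, was at 7.45, 4.63 and 2.89 FPKM. RPS6KA5 (MSK1), which phosphorylates chromatin at early genes, was at 26.96 FPKM with vehicle and 0.70 times that at 10 µM, and MAP2K5 at 13.92, 13.72 and 9.99 FPKM. CREM, whose products act on the CRE, was at 8.75, 11.17 and 12.70 FPKM. SRF was at 26.99, 29.52 and 31.90 FPKM. RNA levels say nothing of the activity of a kinase.

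Of 14 cofactors and turnover factors of AP-1 and EGR1, all passed the filter and 0 were called in either direction, with medians of -0.08 and -0.06. NAB2, a corepressor of EGR1 that EGR1 itself induces, had the largest difference, at 10.47, 15.70 and 16.81 FPKM. FBXW7 and ITCH, ubiquitin ligase genes that act on JUN proteins, were at 0.74 and 0.84 times vehicle at 10 µM. ZFP36, which destabilises AU-rich RNAs, was at 3.81, 4.42 and 4.99 FPKM.

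Of 29 textbook AP-1 target genes, 23 were measured and 13 passed the filter, of which 2 were called higher at 5 µM and 4 at 10 µM, with 0 called lower. Over all genes the shares called higher were 0.539% and 1.31%. At 10 µM 12 of the 13 were above vehicle, against 56.5% of all genes, and the medians were 0.31 and 0.62. Like the other lists, this one was chosen with earlier results of these data known, so its direction is no independent evidence. The stress keratin gene KRT16 was at 0.23, 2.20 and 4.71 FPKM, with close paralogs among the keratins that make its value uncertain. It passed the filter only through the treated libraries and is 1 of the 2 calls at 5 µM and 1 of the 4 at 10 µM, so these calls were in part set by the filter. VEGFA, the angiogenic growth factor, was at 6.45, 15.64 and 19.33 FPKM, and the membrane protease gene MMP14 at 2.12, 4.20 and 5.26 FPKM. The fourth was HBEGF, given above and also among the calls of the immediate early list. The exception was PLAU, the urokinase gene, at 59.87, 57.75 and 48.23 FPKM. The secreted collagenase gene MMP1 and the cytokine genes CXCL8 and IL6 were at 0.15 FPKM or below in all libraries. Of 12 EGR1 target genes, 7 passed the filter and 0 were called, with medians of 0.29 and 0.33. Besides NAB2, the adhesion receptor gene CD44 was at 8.55, 10.82 and 15.02 FPKM and the coagulation factor gene F3 at 3.15, 3.85 and 4.49 FPKM. The 15 reference housekeeping genes had medians of -0.01 and -0.10 with 0 called, and at 10 µM 6 were above vehicle and 9 below. The largest differences at that dose were those of GUSB (37.02, 50.86 and 56.68 FPKM) and B2M, both above vehicle, and of PPIA and GAPDH. The last 2 were below it, at 0.71 and 0.75 times vehicle.

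The 5 genes outside the group whose pair of differences lay nearest to the group's medians of 0.50 and 0.80 were CD33, GP1BB, SLC6A6, SLC25A10 and RASL11A, at distances of 0.021 to 0.030 on the log2 scale over 3 libraries. SLC25A10, a mitochondrial dicarboxylate carrier gene, was at 15.46, 22.63 and 27.96 FPKM, and RASL11A at 1.75, 2.84 and 3.71 FPKM. CD33 and SLC6A6, at 0.57 and 0.47 FPKM with vehicle, passed the filter only through the treated libraries. A further count shows how common such a pattern is: of the 11512 genes past the filter, 90 outside the group lay within 0.1 of these medians.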

How the data were processed

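RNA-seq of 3 H446 libraries, 1 per group, was deposited as FPKM per gene, the unit per the file headers. The authors' tools, per the submitters' processing notes, included Cufflinks, Cuffdiff, Bowtie2, BWA and Trim Galore, with build hg19. Which tool did what, its version, the annotation and the scaling are not given in the sources used. Values have 2 decimals and depth is unknown. Groups came from the treatment labels.

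Symbols listed more than once were summed, and differences were taken in log2(FPKM + 1) among the genes whose mean over libraries reached 1 FPKM. Genes were called at a difference of 1 (2-fold). The members and lists were chosen with earlier results of these data known. Genes named from lists are the up to 4 per list with the largest difference at 10 µM, beside the 5 nearest to the member medians, and some genes of the lists are not reported here. Further genes, among them ATF2, SRF, PLAU, IL6 and those under the other observations, were picked with their values in view. Transcript features came from GENCODE 29 (GRCh38), 1 principal transcript per gene, matched by symbol for 11356 of 11512 genes (98.6%), and promoters from RefSeq. Alternatives were other pseudocounts, filters, fold limits and scalings, and, added after the data were seen, removal of GC and length trends. The calling steps were tested on simulated data. Python 3.11.15, numpy 2.4.6, pandas 2.3.3, statsmodels 0.14.6 and matplotlib 3.10.9 were used.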

Additional observations from a re-analysis of the deposited data

How the results depend on the processing

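Without replicates or counts, every value rests on 1 library per group, and the alternatives show only how the choices of calculation move it. The differences of single genes kept their direction wherever they were at least 0.05 in size, under every alternative run. They moved by more than 0.2 for FOS with both pseudocounts and for JUND at 10 µM with GC and length trends removed. The group medians stayed within 0.2 of their main values under the alternatives run. The count of members called higher at 10 µM, 2, was 1 with a filter at a mean of 5 FPKM (which removes FOS), 7 at a 1.5-fold limit and 0 at 4-fold. At 5 µM, 0, it was 3 at 1.5-fold and 1 with a pseudocount of 0.1. Between doses, 0, it was 2 at 1.5-fold and 1 with either pseudocount.

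Over all genes, the calls higher and lower at 5 µM (62 and 25) were 143 and 53 with a pseudocount of 0.1, 346 and 186 at 1.5-fold, and 3 and 2 at 4-fold, with 13 lower at the filter of 5. At 10 µM (151 and 74) they were 275 and 145, 696 and 399, and 18 and 4, and 95 and 42 at the filter of 5. Between doses (5 and 5) they were 23 and 18 with a pseudocount of 0.1, 16 and 11 with 0.5, 51 and 47 at 1.5-fold, 0 and 0 at 4-fold, and 2 and 2 at the filter of 5. There the count higher was 8 without a filter, 3 with median-ratio scaling and 2 with quantile normalization, and 6 were lower with each of these scalings, so that 33.3% and 25% of the calls were higher in place of 50%. The cause of these shifts was not tested.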

Other observations

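The immediate early list held 8 genes under the filter, whose highest level was 1.27 FPKM. They were named after their values were seen. NPAS4, an activity-dependent neuronal factor, was at 0.60, 0.67 and 1.27 FPKM in the vehicle, 5 µM and 10 µM libraries. ARC, a synaptic immediate early gene, was at 0.37, 0.44 and 0.77 FPKM, EGR4 at 0.40, 0.36 and 0.81 FPKM and KLF4 at 0.10, 0.19 and 0.49 FPKM. These 4 were at least 1.5 times their 5 µM level at 10 µM. EGR2, EGR3, NR4A3 and TNFAIP3 were at 0.48 FPKM or below in every library and did not reach that ratio. With depth unknown, no error can be given for levels this low. Of the AP-1 target genes under the filter, the chemokine gene CCL2 was at 0.14, 0.34 and 1.05 FPKM.

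The early list also held genes below vehicle. PHLDA1 was at 30.67, 20.71 and 18.51 FPKM, and ID1, an inhibitor of basic helix-loop-helix factors, at 497.84, 475.80 and 370.84 FPKM. The ERK-inducible phosphatase gene DUSP5 was at 5.35, 7.91 and 11.69 FPKM, with a difference at 10 µM just under the limit for a call. DUSP2, at 8.49, 13.23 and 20.10 FPKM, was called higher at 10 µM. CSRNP1, a nuclear protein gene, was at 3.77, 7.07 and 9.01 FPKM and was called higher at 10 µM.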
